A study of Rattus norvegicus with 6 samples.

Results

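The family of miR-15, miR-16, miR-195 and miR-497 is a group of microRNAs (miRNAs) that start with nearly the same bases. Its members were taken from the read count table by name, as every rat miRNA called miR-15a, miR-15b, miR-16, miR-195 or miR-497, with both arms of each hairpin. This gave 10 arms of the 693 listed miRNAs: rno-miR-15a-5p, rno-miR-15a-3p, rno-miR-15b-5p, rno-miR-15b-3p, rno-miR-16-5p, rno-miR-16-3p, rno-miR-195-5p, rno-miR-195-3p, rno-miR-497-5p and rno-miR-497-3p. The lungs came from male Sprague Dawley rats of 7 to 8 weeks, under urethane and on a ventilator. In rats with ischemia reperfusion (IR) the left hilum was clamped after a thoracotomy and the blood flow was then restored, while sham rats had the same surgical access with no clamp. There were 3 IR and 3 sham samples. Neither the time of reperfusion nor the part of the lung that was sequenced is given in the sources used here. Each sample gave 1 small RNA library, and nothing in the labels says that the samples came from separate rats, although the study calls them biological replicates, so the p-values measure the spread between these libraries.

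A miRNA finds its target mRNAs mainly through its seed, the stretch from its base 2 to its base 7 or 8, and miRNAs with the same seed can bind many of the same mRNAs. The family is best known as a brake on the cell cycle and on survival, with cyclin D1, cyclin E1, the checkpoint kinases Chek1 and Wee1 and the antiapoptotic protein Bcl2 among its known targets in mammals. It is made from separate gene clusters. In RefSeq (rat assembly GRCr8) Mir15b and Mir16 both lie inside Smc4, a gene for a condensin subunit that packs chromosomes for division, with 146 bases between the starts of their 5p arms on chromosome 2. Mir497 and Mir195 lie on chromosome 10, with 337 bases between the starts of their 5p arms and no annotated host gene around them. miR-15a is known in human as the partner of a second copy of miR-16, in the DLEU2 locus that is often deleted in chronic lymphocytic leukaemia.

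The mature sequences show what the family shares, and they are given 5′ to 3′ from RefSeq (GRCr8), with bases 2 to 8 in capitals. 8 of the 10 arms were found there. Both arms of miR-15a were missing, so their seeds are not compared here or counted below. The first 4 are the 5p arms that were found, whose capitals are identical. The next 3 are the partner arms that had enough reads for the test, and their capitals differ from the 5p seed.
miR-15b-5p (chr2:155555197-155555218, + strand): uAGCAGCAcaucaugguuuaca
miR-16-5p (chr2:155555343-155555364, + strand): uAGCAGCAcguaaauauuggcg
miR-195-5p (chr10:55450509-55450529, + strand): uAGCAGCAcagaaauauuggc
miR-497-5p (chr10:55450172-55450193, + strand): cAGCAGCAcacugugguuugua
miR-15b-3p (chr2:155555235-155555256, + strand): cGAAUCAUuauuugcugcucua
miR-16-3p (chr2:155555385-155555405, + strand): aCCAAUAUuauugugcugcuu
miR-195-3p (chr10:55450547-55450569, + strand): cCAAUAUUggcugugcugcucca
Of the 693 rat mature miRNAs in that RefSeq table, 6 (0.866%) have the same bases 2 to 7 as miR-16-5p. Besides the 4 above they are miR-322-5p, the rodent counterpart of human miR-424, and miR-503-5p, which come from a cluster on chromosome X. miR-503-5p is the only one of the 6 whose base 8 is different.
miR-322-5p (chrX:137726198-137726219, - strand): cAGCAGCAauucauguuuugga
miR-503-5p (chrX:137725899-137725921, - strand): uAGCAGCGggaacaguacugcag

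Downstream of the seed the 5p arms form 2 pairs that cross the gene clusters. Counted from 1 at the 5′ end, miR-16-5p and miR-195-5p are identical at 19 of 21 positions and differ by G10A and U11G (the base of miR-16-5p first). miR-15b-5p and miR-497-5p are identical at 16 of 22 positions, while miR-15b-5p and its cluster partner miR-16-5p are identical at 14 of 22. How many mismatches the mapping allowed is not given, so some reads of miR-16-5p and miR-195-5p may have been assigned to each other. For family arms with a mean of at least 5 reads, no other listed name had counts matching within 5% or 2 reads in every library. The arms of miR-15a and miR-497-3p had fewer reads and were left out of this check. Among them, miR-15a-3p had the same few counts as miR-23a-5p in every library.

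The libraries held 3775663 to 11248166 listed miRNA reads after IR and 7459979 to 10718899 in sham. Counting 3 reads as the limit, an arm with 0 reads could still be present at 0.267 to 0.795 TPM, depending on the library. Markers of lung cells were abundant: endothelial miR-126a-3p averaged 90129 ± 10630 normalized CPM after IR and 92138 ± 11728 in sham (SD, n = 3 each), while heart miR-208a-3p and miR-208b-3p summed to at most 0.285 after IR and 0.112 in sham. Normalized CPM are reads per 1000000 after trimmed mean (TMM) scaling. sham replicate 3 stands apart in its make-up, with 24.2% of its reads from miR-21-5p against 9.66% to 13.5% in the other 5 libraries.

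All 10 arms together took 0.360%, 0.345% and 0.396% of the listed miRNA reads in IR replicates 1 to 3, and 0.496%, 0.385% and 0.383% in sham replicates 1 to 3. The 95% exact (Clopper-Pearson) intervals are narrow, for example 0.339% to 0.351% in the shallowest library (IR replicate 2), and cover counting error only. sham replicate 1 was the highest, and the other 5 libraries overlapped. For the 5 arms named beforehand (rno-miR-15b-5p, rno-miR-15b-3p, rno-miR-16-5p, rno-miR-195-5p and rno-miR-497-5p) the mean share was 0.340% ± 0.0263 after IR and 0.400% ± 0.0657 in sham (SD, n = 3 each), a difference of -0.0593 percentage points that was within the spread (exact permutation test, two-sided, p = 0.3, where 0.1 is the smallest p that 3 against 3 can give). Without sham replicate 1 this difference was -0.0214 percentage points. It also depended on the denominator: with the reads of miR-21-5p and miR-143-3p left out of it, the share was 0.433%, 0.435% and 0.501% in IR replicates 1 to 3 and 0.673%, 0.513% and 0.554% in sham replicates 1 to 3. All IR libraries then lay below all sham libraries, with a difference of -0.123 percentage points (exact permutation test, two-sided, p = 0.1).

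miR-16-5p was the main product in every library, with 58.5% to 60.7% of the family's reads after IR and 60.1% to 61.4% in sham. miR-195-5p came next, with 23.6% to 25.9% after IR and 21.5% to 25.4% in sham. Then followed miR-195-3p, miR-497-5p and miR-15b-5p. After IR each library had most miR-195-3p, then miR-497-5p, then miR-15b-5p, and the ranges of normalized CPM did not overlap (240 to 289, 174 to 210 and 97.2 to 124). In sham these 3 neighbours overlapped (193 to 273, 209 to 256 and 176 to 223), so that their order there was within the spread. miR-15b-3p and miR-16-3p stood below them without overlap. The arms of miR-15a and miR-497-3p were nearly absent.

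**Figure D1:**
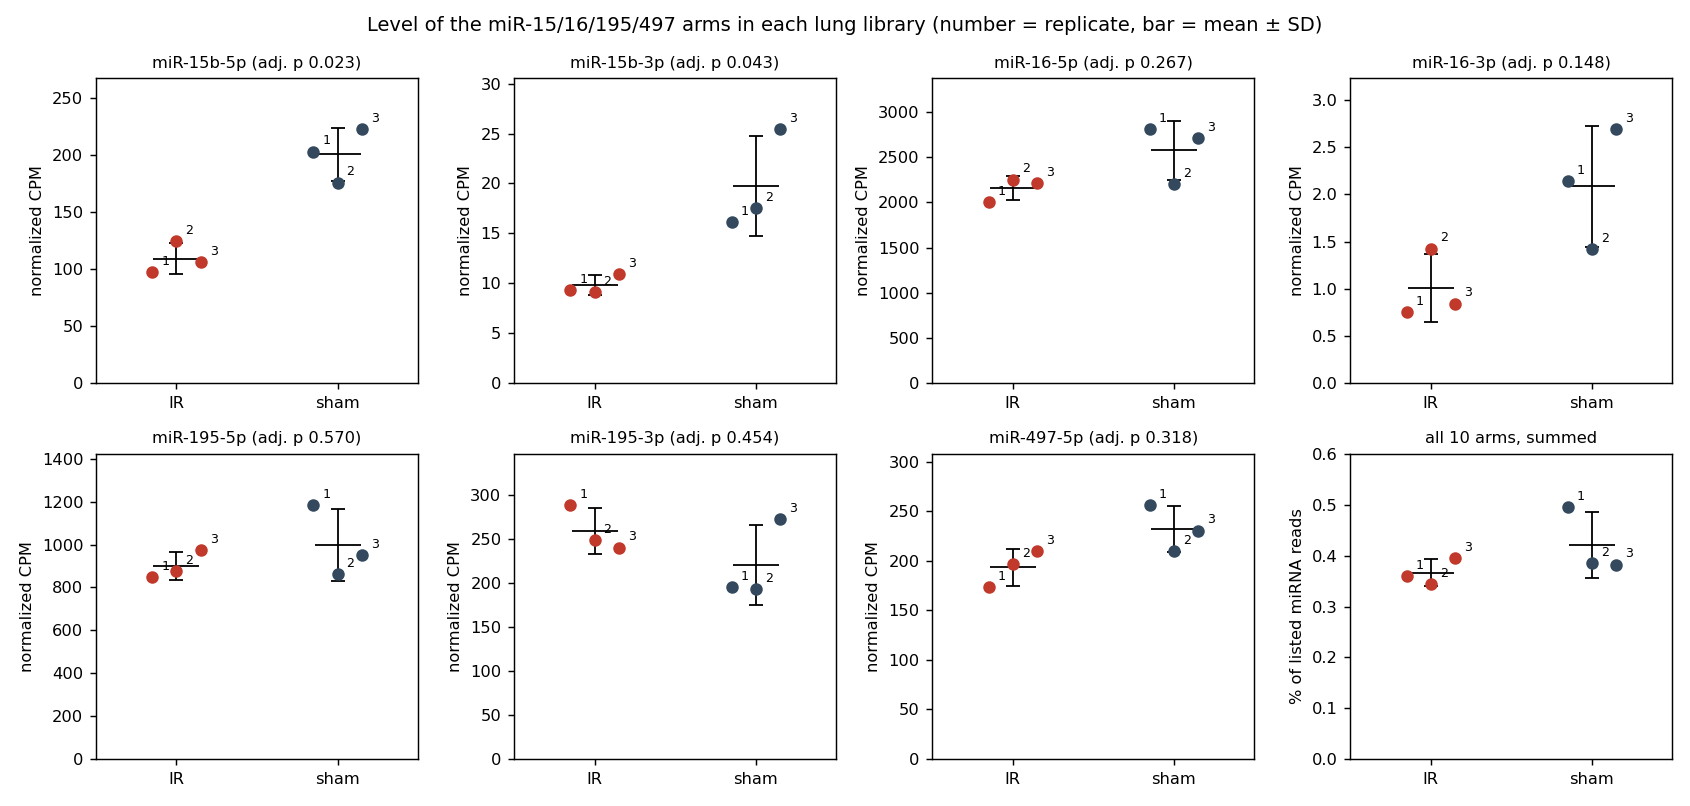
Normalized CPM (vertical axes, from 0) of the 7 tested arms in the 3 IR (red) and 3 sham (dark) libraries, with the share of reads of all 10 arms in the last panel; points are libraries with their replicate number and bars are the mean ± SD. In the miR-15b panels every IR point lies below every sham point (97.2 to 124 against 176 to 223 for miR-15b-5p), and in the other panels the groups overlap.

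Both arms of miR-15b were lower after IR. IR was compared with sham by edgeR's quasi-likelihood test over the 418 miRNAs with enough reads, and an arm was called where its p after Benjamini-Hochberg adjustment was under 0.05. 7 of the 10 arms had enough reads, and of these 2 were called lower and 0 higher, where 2.63% of all tested miRNAs were called lower and 7.89% higher. At an unadjusted p under 0.05 from edgeR the count was 3 lower and 0 higher, where 12.2% of the tested miRNAs were lower and 14.1% higher. This count adds miR-16-3p to the arms of miR-15b. miR-16-3p passed the filter on low counts mainly through the sham libraries, and it also enters the median and the count below 0 given next for the 7 arms. DESeq2 called 2 lower and 0 higher, and over all 505 miRNAs to which it gave an adjusted p it called 5.15% lower and 8.51% higher. The 2 called arms are arms of the same hairpin and so come from 1 precursor. The median log2 fold change was -0.26 over the 7 arms and -0.01 over all 418 miRNAs, and 6 of the 7 arms lay below 0, as did 51.2% of all tested miRNAs. Both miR-15b arms, and none of the other 5, had all IR libraries below all sham libraries, which was so for 16.7% of the tested miRNAs (all above in 17.2%).

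miR-15b-5p, the arm that carries the family seed, had 97.2, 124 and 106 normalized CPM in IR replicates 1 to 3, and 203, 176 and 223 in sham replicates 1 to 3. The highest IR library was well below the lowest sham library. The log2 fold change was -0.88 (standard error 0.17, 95% interval -1.28 to -0.48, adjusted p = 0.0229 from edgeR), or 1.84-fold lower, the 17th smallest p of 418. This rested on 2338 reads after IR and 5583 in sham.

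miR-15b-3p, the less abundant arm of the same hairpin, had 9.36, 9.12 and 11.0 normalized CPM after IR, against 16.1, 17.6 and 25.4 in sham. The IR libraries lay close together and sham replicate 3 was the highest of all. Its log2 fold change was -0.996 (standard error 0.25, 95% interval -1.57 to -0.42, adjusted p = 0.0427 from edgeR), with 224 reads after IR and 553 in sham.

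Both calls were lost when some single libraries were left out, while the fold changes stayed below 0. miR-15b-5p was no longer called without IR replicate 1, IR replicate 3 or sham replicate 3 (adjusted p = 0.0581, 0.0778 and 0.0615 from edgeR), with log2 fold changes of -0.84, -0.81 and -0.81. miR-15b-3p lost its call without any 1 of the IR libraries or without sham replicate 3 (adjusted p of 0.0909 to 0.109 from edgeR), and the smallest change was -0.78, without sham replicate 3.

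**Figure D2:**
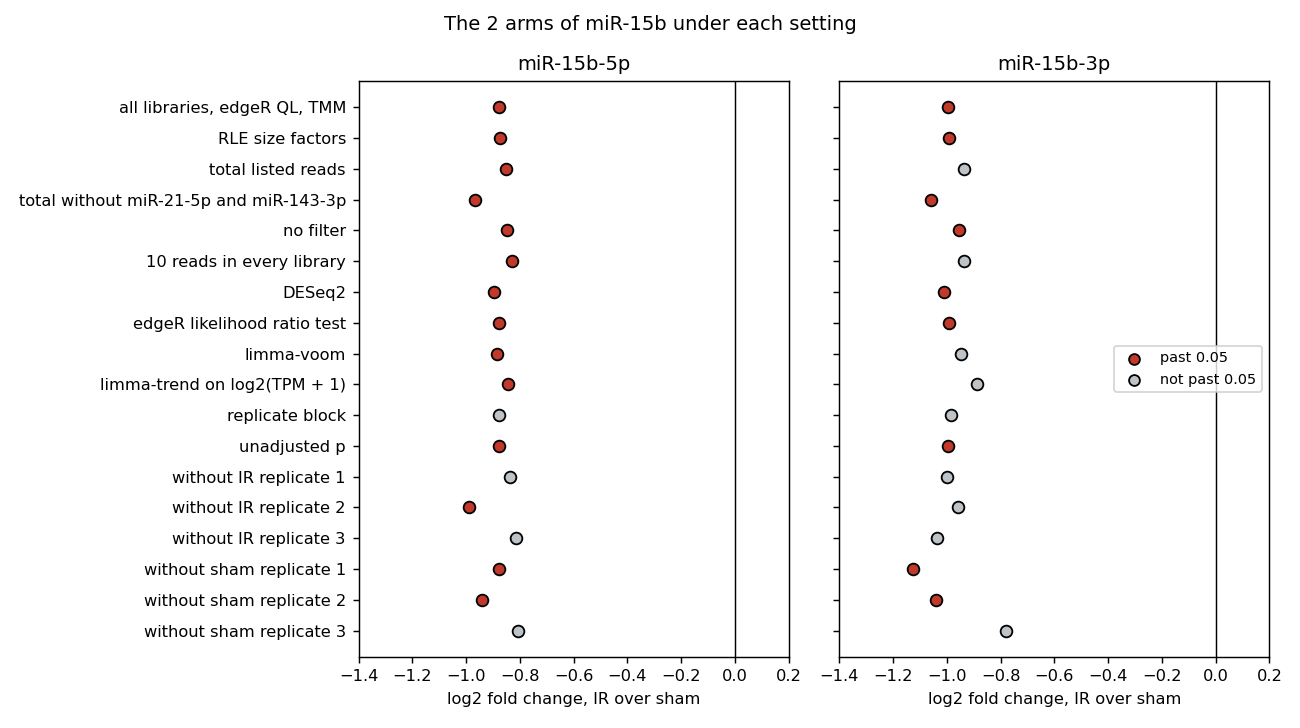
Log2 fold change of IR over sham (horizontal axes) for the 2 arms of miR-15b under each setting of the analysis (rows), from 3 IR and 3 sham libraries or with 1 library left out. All values lie below 0, between -0.99 and -0.81 for miR-15b-5p and between -1.13 and -0.78 for miR-15b-3p, and red points are past 0.05.

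miR-16-5p, the most abundant member and the cluster partner of miR-15b, had 2002, 2251 and 2210 normalized CPM after IR, against 2808, 2203 and 2710 in sham. sham replicate 2 lay among the IR libraries. The log2 fold change was -0.26 (95% interval -0.57 to 0.06, adjusted p = 0.267 from edgeR). The estimate of -0.88 for miR-15b-5p lies outside this interval, but the 95% interval of miR-15b-5p (-1.28 to -0.48) overlaps it.

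miR-16-3p, the minor arm of the same hairpin, was read only 5, 5 and 10 times in IR replicates 1 to 3 and 17, 16 and 24 times in sham replicates 1 to 3. It passed the filter on low counts mainly through the sham libraries, so its place among the tested arms is not independent of that difference. In normalized CPM these are 0.755, 1.43 and 0.843 after IR against 2.14, 1.42 and 2.69 in sham, and IR replicate 2 and sham replicate 2 were level. The log2 fold change of -1.12 (95% interval -2.13 to -0.12) had an unadjusted p = 0.0325 and an adjusted p = 0.148 from edgeR, and was not called.

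miR-195-5p, known from mouse heart as a brake on the division of heart muscle cells after birth, had 848, 877 and 973 normalized CPM after IR, against 1185, 861 and 950 in sham. The groups overlapped throughout, with only sham replicate 1 standing higher. Its log2 fold change was -0.15 (95% interval -0.51 to 0.20, adjusted p = 0.570 from edgeR).

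miR-497-5p, from the same cluster, had 174, 196 and 210 normalized CPM after IR, against 256, 209 and 230 in sham. IR replicate 3 and sham replicate 2 were level. The log2 fold change was -0.26 (95% interval -0.62 to 0.10, adjusted p = 0.318 from edgeR).

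miR-195-3p was the only tested arm with a value above 0. It had 289, 249 and 240 normalized CPM after IR, against 195.3, 193 and 273 in sham. Only sham replicate 3 reached the IR range. The log2 fold change was 0.23 (95% interval -0.19 to 0.66, adjusted p = 0.454 from edgeR), and it was 0.41 without sham replicate 3.

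The other 3 arms had too few reads for the test. miR-15a-5p was read 3, 0 and 5 times in IR replicates 1 to 3 and 0, 13 and 5 times in sham replicates 1 to 3, a ratio of IR over sham of 0.594 after division by the reads of each group (95% exact interval 0.223 to 1.43, counting error only). miR-15a-3p had 5 reads after IR and 2 in sham (ratio 3.34, interval 0.547 to 35.1), and miR-497-3p had 8 and 15 (ratio 0.712, interval 0.262 to 1.79). All 3 intervals include 1, so no difference was detectable at this depth.

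**Figure D3:**
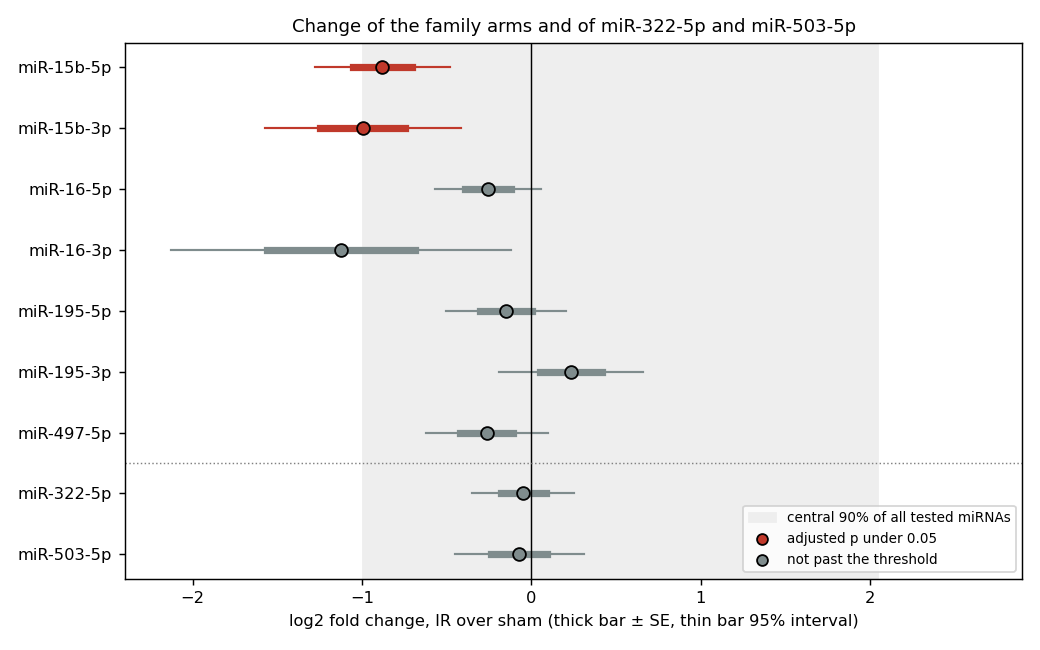
Log2 fold change of IR over sham (horizontal axis) for the 7 tested arms of the family and, under the dotted line, for miR-322-5p and miR-503-5p; thick bars are the standard error, thin bars the 95% interval (n = 3 libraries per group), and the grey band holds the central 90% of all 418 tested miRNAs (-0.99 to 2.05). The 2 called arms of miR-15b are red, at -0.88 and -0.996, and the intervals of all other arms except miR-16-3p cross 0. miR-16-3p has few reads and passed the filter on low counts mainly through the sham libraries.

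The ratio of 2 arms within a library does not depend on scaling between libraries, and it was used to test whether members of the family differed in their change. Reads of miR-15b-5p were 4.85%, 5.52% and 4.80% of those of miR-16-5p in IR replicates 1 to 3, and 7.23%, 7.98% and 8.22% in sham replicates 1 to 3. All IR libraries lay below all sham libraries. The mean log2 ratio was -4.31 ± 0.112 after IR and -3.68 ± 0.0964 in sham (SD, n = 3 each), a difference of -0.63 that is larger than the spread in either group (exact permutation test, two-sided, p = 0.1, the smallest that 3 against 3 allow). It was -0.69 to -0.59 with any 1 library left out. On average there were 19.9 reads of miR-16-5p for each read of miR-15b-5p after IR and 12.8 in sham.

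Between the clusters, the log2 ratio of miR-195-5p to miR-15b-5p was 3.05 ± 0.202 after IR and 2.31 ± 0.226 in sham (SD, n = 3 each). All IR libraries lay above all sham libraries, with a difference of 0.74 (exact permutation test, two-sided, p = 0.1). Within the other cluster, the log2 ratio of miR-497-5p to miR-195-5p was -2.22 ± 0.0656 after IR and -2.10 ± 0.0963 in sham, a difference of -0.12 with overlapping libraries (exact permutation test, two-sided, p = 0.2). The log2 ratio of the miR-15b arms, 3p over 5p, was -3.47 ± 0.261 after IR and -3.37 ± 0.265 in sham, and its difference of -0.10 was within the spread (exact permutation test, two-sided, p = 0.6). With adjustment over these 4 ratios the exact permutation p were 0.2, 0.2, 0.267 and 0.6 in the order given, and this design cannot go lower than 0.1 for any of them.

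A pair of ratios was added after the values had been seen. The reads of miR-16-3p were 0.0377%, 0.0633% and 0.0381% of those of miR-16-5p after IR, and 0.0763%, 0.0644% and 0.0992% in sham. All IR libraries were below all sham libraries (difference of the log2 ratio -0.81), with IR replicate 2 and sham replicate 2 nearly equal. No test is given for this ratio, since the arm passed the filter mainly through the sham libraries, and the counts are few. For the hairpin of miR-195 the reads of the 3p arm were 34.0%, 28.4% and 24.7% of those of the 5p arm after IR, and 16.5%, 22.5% and 28.7% in sham, with overlap (difference of the log2 ratio 0.39, exact permutation test, two-sided, p = 0.3). This hairpin is shown from RefSeq (GRCr8, chr10:55450495-55450581, + strand), with both arms in capitals, since among the hairpins whose arms were both tested its 3p arm was the most abundant beside its 5p arm.
Mir195 hairpin: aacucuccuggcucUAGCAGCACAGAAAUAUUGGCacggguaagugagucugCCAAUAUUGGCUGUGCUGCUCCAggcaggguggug

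**Figure D4:**
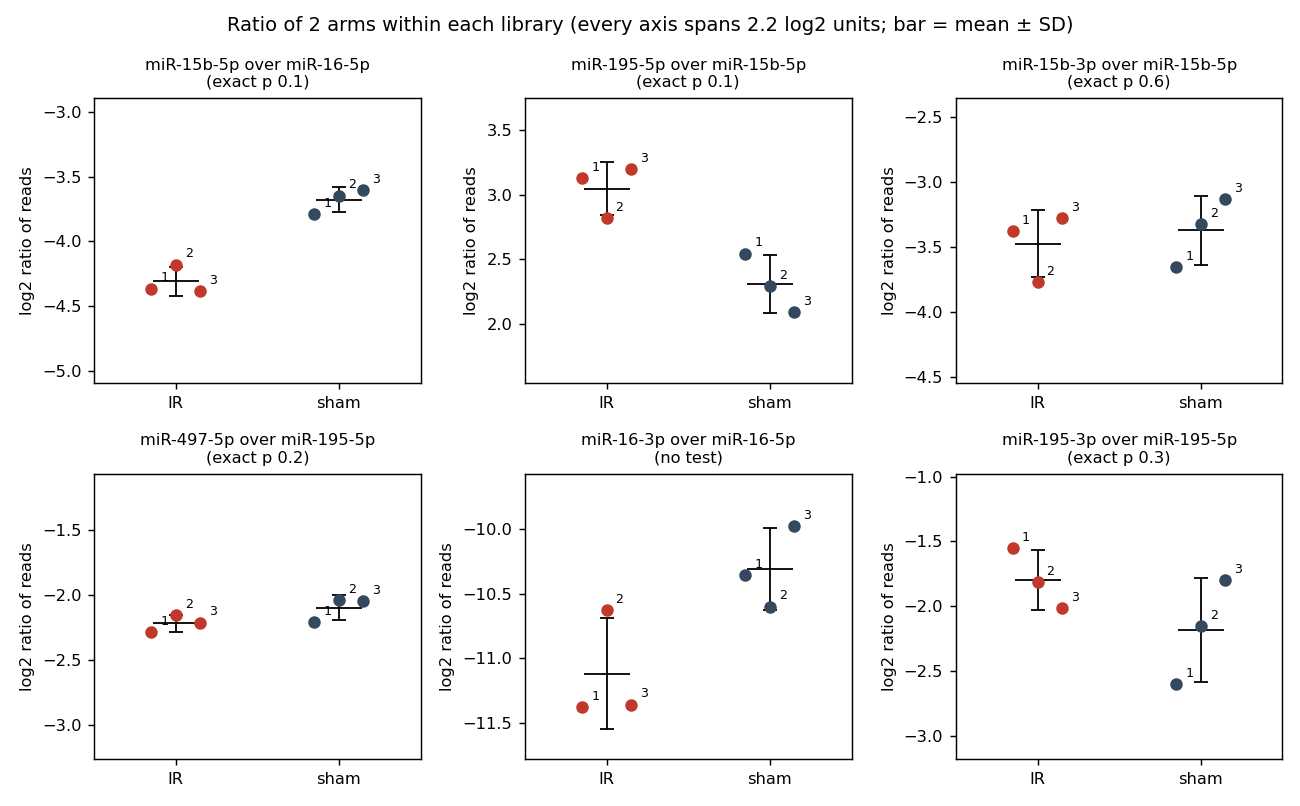
Log2 ratio of the reads of 2 arms within each library (vertical axes, each 2.2 log2 units high) for the 3 IR (red) and 3 sham (dark) libraries, with mean ± SD. The groups do not overlap for miR-15b-5p over miR-16-5p (-4.31 against -3.68) and miR-195-5p over miR-15b-5p (3.05 against 2.31). For miR-16-3p over miR-16-5p they only just separate, with IR replicate 2 and sham replicate 2 nearly equal. miR-16-3p has few reads and passed the filter mainly through the sham libraries. The groups overlap in the other 3 panels.

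The miRNAs outside the family that carry the same bases 2 to 7 had overlapping values in the groups. miR-322-5p averaged 828 ± 63.6 normalized CPM after IR and 855 ± 71.8 in sham (log2 fold change -0.05, 95% interval -0.35 to 0.25), and miR-503-5p averaged 102 ± 5.03 after IR and 107 ± 12.0 in sham (-0.07, interval -0.45 to 0.31; SD, n = 3 each). Neither passed the test (adjusted p = 0.851 and 0.809 from edgeR). The intervals of both exclude the -0.88 of miR-15b-5p.

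Outside the family, the tested miRNAs whose levels over the 6 libraries were most like those of miR-15b-5p were miR-92a-3p, miR-130b-5p, miR-17-5p, miR-142-3p and miR-146a-5p. Likeness was measured as the root mean square difference of log2(normalized CPM + 1) after each profile was centred on its own mean, and it was 0.127 to 0.181 for these 5. The 2 arms of miR-15b were 0.205 apart, miR-15b-5p and miR-16-3p 0.160, and miR-15b-5p and miR-16-5p 0.322. At 0.755 to 2.69 normalized CPM the added 1 shrinks the changes of miR-16-3p. To a lesser degree it also shrinks those of miR-130b-5p, at 3.02 to 10.3. The short distances of miR-16-3p and miR-130b-5p therefore cannot be ranked against those of the more abundant miRNAs. For miR-195-5p the closest profiles outside the family were those of let-7b-5p, miR-143-5p, miR-30b-5p, miR-141-5p and miR-146b-3p (0.0902 to 0.109). Its cluster partner miR-497-5p was as near, at 0.0904, and miR-16-5p was at 0.108. Inside the family the closest pair was miR-16-5p and miR-497-5p, at 0.0636, from different clusters.

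Levels in bulk lung cannot tell fewer cells of a type from less of a miRNA per cell, and the summed levels of 2 blood cell lists were lower after IR, as miR-15b was. The lymphocyte list (miR-150-5p, miR-342-3p and miR-155-5p) summed to 1015 to 1183 normalized CPM after IR and 1710 to 1773 in sham. Of its 3 members 1 was called lower, miR-150-5p, which restrains the lymphocyte transcription factor Myb (log2 fold change -0.77, adjusted p = 0.0229 from edgeR), while miR-342-3p was at -0.13 and the third, miR-155-5p (named after its value was seen), at 0.24. The leukocyte list (miR-142-5p, miR-142-3p and miR-223-3p) summed to 1267 to 1543 after IR and 1678 to 2764 in sham, with 0 of 3 called by edgeR (2 lower at an unadjusted p under 0.05, and 1 lower by DESeq2) and its most abundant members miR-142-5p and miR-223-3p at -0.61 and -0.78. In these lists only miR-150-5p and miR-142-3p had all IR libraries below all sham libraries, which was so for 16.7% of all tested miRNAs. The other members of both lists overlapped between the groups. The erythroid list of 4 overlapped between the groups (1493 to 2155 after IR and 1233 to 4048 in sham), with miR-451-5p at -0.20 and miR-486 at -1.09 and 0 of 4 called by edgeR (2 lower at an unadjusted p under 0.05, and 0 by DESeq2). Of 9 miRNAs of the miR-17 and miR-106b clusters, which promote proliferation, 2 were called lower and 0 higher by edgeR and by DESeq2 (4 lower and 0 higher at an unadjusted p), and their most abundant members miR-25-3p and miR-92a-3p were at -0.13 and -0.73. The epithelial list of 5 (among them miR-200a-3p and miR-200b-3p, which keep epithelial cells from turning mesenchymal) summed to 18673 to 19223 after IR and 12890 to 15883 in sham, with 0 of 5 called by edgeR (2 higher at an unadjusted p under 0.05, and 1 higher by DESeq2). Of these 5 only miR-200a-3p and miR-200b-3p had all IR libraries above all sham libraries, which was so for 17.2% of all tested miRNAs. The endothelial and smooth muscle lists overlapped between the groups. Liver miR-122-5p was at 5.42 to 9.21 normalized CPM after IR and 0.621 to 6.61 in sham. Of the brain list miR-124-3p was nearly absent. Its other member, miR-9a-5p, had 37.6, 143 and 31.7 normalized CPM in IR replicates 1 to 3. In sham replicates 1 to 3 it had 26.6, 39.7 and 50.1, with overlap (log2 fold change 0.85, adjusted p = 0.360 from edgeR, not called). These list counts stand beside the shares of all tested miRNAs given above for each rule (2.63% lower and 7.89% higher by edgeR). The part of these cells in the fall of miR-15b was not tested.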

How the data were processed

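The deposited table holds whole read counts per miRNA for 3 IR and 3 sham libraries and, beside them, TPM that the authors made by dividing each count by the listed reads of its library, with no term for length. The submitters' processing notes name Bowtie; the sources used here give neither its version nor the build, annotation and counting rule. Samples were grouped by the labels, and every value column was mapped (0 unmapped). No row stood for unassigned reads.

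The count analysis used edgeR 4.0.16 under R 4.3.3, with filterByExpr (minimum count 10, total 15), TMM scaling (factors 0.867 to 1.06) and the quasi-likelihood test of IR against sham over 418 miRNAs. The standard error is the log2 fold change divided by the square root of F, and intervals use its t quantile. Alternatives were other scalings, filters, limma 3.58.1, DESeq2 1.42.0, a replicate block, an unadjusted p and leaving out each library. On simulated counts of IR against sham (421 tested miRNAs) the test called 41 of 60 miRNAs changed 2-fold, 62 of 64 changed 4-fold and 3 of 297 unchanged, so a 2-fold change can be missed.

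Members, marker lists and the naming rule were chosen with earlier results of these data known. The rule takes all members, miRNAs with the same bases 2 to 7, the 5 profiles most like miR-15b-5p and miR-195-5p, and the 2 most abundant miRNAs of each list; miR-150-5p, miR-342-3p and the marker miR-126a-3p are named under it, and miR-208a-3p and miR-208b-3p as markers. 5 arms were named beforehand; miR-15a, miR-16-3p, miR-195-3p and miR-497-3p were added because their names meet the rule.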

Additional observations from a re-analysis of the deposited data

How the results depend on the processing

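The log2 fold changes of the 7 tested arms kept their sign under all alternatives in which they were fitted; miR-16-3p could not be fitted with 10 reads required in every library. The number of called miRNAs, 44 with all libraries, was 26 with 10 reads required in every library, 69 with DESeq2, 110 at an unadjusted p and 2 to 57 with 1 library left out. Of the 5 arms named beforehand 2 were called, and 1 (miR-15b-5p) with total listed reads as the scaling, with 10 reads in every library, with limma-voom and with limma-trend on log2(TPM + 1); miR-15b-3p then had adjusted p of 0.05002 to 0.0541. With 1 library left out the number was 0 to 2, also over all family arms, whose count was 1 in the same 4 settings. The lowest count, 0, came without IR replicate 1, IR replicate 3 or sham replicate 3.

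With the replicate number as a block 0 miRNAs and 0 family arms were called by edgeR, and 84 and 2 at an unadjusted p under 0.05 (adjusted p = 0.1001 for miR-15b-5p and 0.130 for miR-15b-3p from edgeR, changes of -0.88 and -0.99). Deviations of same-numbered IR and sham libraries had r of -0.23, -0.39 and -0.18 across miRNAs, against -0.10 to 0.31 for the other pairs. These r are not independent, since each deviation is taken from the mean of its group of 3 libraries. They show no likeness of same-numbered libraries but cannot settle whether the numbers pair them. The log2 ratio of the miR-15b arms, -0.10, ran from -0.25 to 0.0441 with 1 library left out, changing sign without IR replicate 2 (0.0441) or sham replicate 3 (0.0162). The causes were not tested.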
